A study of Mus musculus with 8 samples.

Results

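The Ly6 cluster of mouse chromosome 15 was examined for mono-, di- and trimethylation of histone H3 at lysine 9 (H3K9me1, H3K9me2 and H3K9me3) in mouse embryonic fibroblasts (MEFs). The cluster was taken as 10 genes, Lynx1, Ly6d, Ly6k, Ly6e, Ly6i, Ly6a, Ly6c1, Ly6c2, Ly6h and Gpihbp1, of 55413 annotated genes on the 21 main chromosomes and of 785 protein-coding genes on chromosome 15. These genes were chosen by name and by their place distal to a very wide block of H3K9me2 and H3K9me3, so the marks themselves took part in the choice, and every value below is a description with no test. The 8 samples were ChIP-seq libraries of MEFs with the genotype wild type, in 4 groups of 2 replicates, namely sonicated input DNA and immunoprecipitates for H3K9me1, H3K9me2 and H3K9me3. No group was treated. The study's methods name the wild-type line E1c, whose Eset1 gene is floxed for deletion by tamoxifen, so all groups carry that allele. There was 1 region list per mark and no list for the input. The lists give positions in GRCm38 and no values per replicate, so no value below has an SD or an n of replicates. They hold no depth of reading, for which the study's methods give only a general figure per sample. The fibroblast identity of the cells could not be checked, since no expression value was used here.

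Ly6 proteins are small, disulphide-rich proteins that are mostly held at the cell surface by a glycosylphosphatidylinositol (GPI) anchor, and several of them are classical surface markers of blood and stem cells. Their genes lie side by side and arose by duplication, so neighbours can share long stretches of sequence. The methylation states of H3K9 have different distributions. Trimethylated H3K9 is a binding site for HP1 proteins and typically covers repeats and silent domains, dimethylated H3K9 often forms broad domains over genes that are not in use, and the monomethylated form is also found at active genes.

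From the first base of Lynx1 to the last base of Gpihbp1 the cluster spanned chr15:74747852-75599481, or 852 kb. The choice gave no positions for the wide block, so the widest region of each mark on chromosome 15 was taken for it. The widest H3K9me3 region lay at chr15:73788001-74535000 (747 kb) and ended 212.9 kb before Lynx1. The widest H3K9me2 region lay inside it at chr15:73934251-74339250 (405 kb) and ended 408.6 kb before Lynx1. The Ly6 cluster was therefore not part of either block, and each mark over it was called as a series of smaller regions. In the cluster, 41 H3K9me1, 38 H3K9me2 and 29 H3K9me3 regions were met, and their median widths came to 13.5 kb, 10.9 kb and 7.50 kb.

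The most direct contrast within the cluster was between Ly6c1 and Ly6c2. These neighbouring genes encode the Ly6C antigens of monocytes, T cells and endothelial cells. The bases just upstream of their start sites are shown because they resemble each other while their called marks differed. RefSeq's promoter table (GRCm38.p6) held 2 of the 10 genes, Ly6c1 and Ly6c2. It had no entry for Ly6a, Ly6d, Ly6e, Ly6h, Ly6i, Ly6k, Lynx1 or Gpihbp1. The 250 bases upstream of the start lie on the minus strand, at chr15:75048838-75049087 for Ly6c1 and at chr15:75111972-75112221 for Ly6c2. Both stretches lie outside the gene records of the annotation. They are written 5′ to 3′, and capitals mark bases that differ or have no partner within the aligned part. This part runs from base 32 to 250 of Ly6c1 and from base 1 to 225 of Ly6c2. Bases outside it have no partner and are in lower case.
Ly6c1: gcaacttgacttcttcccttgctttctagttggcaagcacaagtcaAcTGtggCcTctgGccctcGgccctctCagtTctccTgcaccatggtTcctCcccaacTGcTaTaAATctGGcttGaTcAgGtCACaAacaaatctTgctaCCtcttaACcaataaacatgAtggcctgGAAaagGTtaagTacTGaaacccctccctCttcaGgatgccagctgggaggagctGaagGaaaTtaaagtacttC
Ly6c2: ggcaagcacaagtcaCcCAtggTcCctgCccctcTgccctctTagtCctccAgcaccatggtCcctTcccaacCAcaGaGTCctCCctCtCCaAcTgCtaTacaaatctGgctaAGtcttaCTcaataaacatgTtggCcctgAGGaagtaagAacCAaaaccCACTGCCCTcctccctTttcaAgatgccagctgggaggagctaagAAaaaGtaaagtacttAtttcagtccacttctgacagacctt

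In a pairwise alignment 212 bases were paired and 170 of them were identical (80.2%), with 9 gaps. No H3K9me1, H3K9me2 or H3K9me3 region covered the Ly6c1 stretch. The Ly6c2 stretch was covered over 100% of its bases by H3K9me1 and by H3K9me2, and over 0% by H3K9me3. A read of 100 bases from sequence that occurs more than once in the assembly has no single place by itself, although its mate may give it one. Of the 151 words of 100 bases within each stretch, 122 (80.8%) were repeated for Ly6c1 and 43 (28.5%) for Ly6c2. The part of repeated sequence in this difference was not tested. A motif of interferon-response promoters is GAAA followed by any 2 bases and a further GAAA. Searched on both strands, it had no match in any of the 4 RefSeq promoters of these genes. The promoters of each gene overlap and extend beyond the bases shown. The motif was held by 3.44% of all promoters of the same length and by 4.06% of those on chromosome 15. With so few promoters and so low a share, the lack of a match says little about these genes.

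Around start sites, in windows of 1 kb either side of every annotated start, H3K9me1 was called at 8 of the 10 genes. The background was 21.4% of all annotated genes and 78.6% of protein-coding genes on chromosome 15, which these lists cover broadly for all marks. H3K9me2 was called at 7 genes, against 11.5% of all genes and 41.4% of the chromosome 15 genes. H3K9me3 was called at 3 genes, against 12.0% and 34.6%. Any mark was called at 8 genes, against 28.8% and 82.3%. The counts for H3K9me1, H3K9me3 and any mark were thus near those of the chromosome, and the count for H3K9me2 was above it. Since that mark took part in the choice of the genes, nothing further is read from the difference. Within the same distance of a start, the study reports fewer genes for each mark, but it counted otherwise. It annotated peaks and kept those within 1 kb of a start. Here every gene with 1 bp of overlap at any of its starts was counted. The part of this in the difference was not tested. Any mark was called at 3.54% of all annotated genes on chromosome 7 and at 82.7% on chromosome 15. The part of the region calling in this spread between chromosomes was not tested.

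Over gene bodies, H3K9me1 met 9 of the 10 genes, against a background of 94.5% of protein-coding genes on chromosome 15. H3K9me2 met 7 (background 56.4%), H3K9me3 met 5 (51.3%) and any mark met 9 (95.5%). The median share of the gene body covered was 100% for H3K9me1, 89.1% for H3K9me2 and 6.53% for H3K9me3. Over all protein-coding genes of chromosome 15 these medians were 81.6%, 6.0% and 1.51%.

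**Figure D1:**
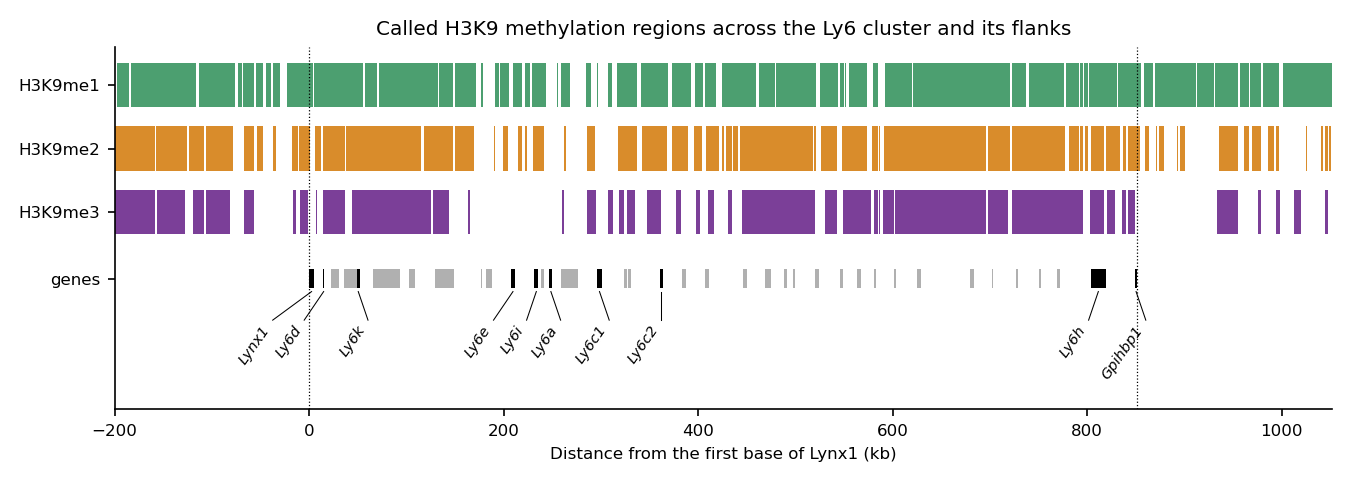
Regions called for each mark (coloured bars) from 200 kb before Lynx1 to 200 kb after Gpihbp1, by distance from the first base of Lynx1 in kb. Black boxes are the 10 Ly6 genes, grey boxes other annotated genes inside the cluster, and dotted lines its ends. Regions thin out from Ly6e to Ly6c1, where 47.2% of bases had no mark.

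At their start sites, the haematopoietic and immune surface antigens of the cluster carried no mark (Ly6a and Ly6c1), H3K9me1 alone (Ly6e), H3K9me1 with H3K9me2 (Ly6i and Ly6c2) or all marks (Ly6d). Ly6a encodes Sca-1, a marker of stem and progenitor cells (chr15:74994877-74998031, minus strand). It was the only one of the 10 genes with no mark at a start site or over the gene body, with 0% covered around all 6 of its start sites. From its 5′ end the nearest H3K9me1 region was 4.97 kb away, the nearest H3K9me2 region 8.53 kb and the nearest H3K9me3 region 10.2 kb. Ly6a lay inside a 12.0 kb stretch without any mark, at chr15:74991001-75003000. Such a stretch is not rare on chromosome 15, where 547 of 4919 unmarked gaps (11.1%) were at least as wide.

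Ly6c1 (chr15:75044018-75048830, minus strand) likewise had 0% of the windows around its 6 start sites covered by each mark. Its gene body was covered by H3K9me1 over 20.4% and by the other marks over 0%. This H3K9me1 region was 1.5 kb wide and lay 3.83 kb from the 5′ end. Ly6c1 lay in the widest gap between H3K9me2 regions in the cluster, 23.25 kb at chr15:75042001-75065250, and 10.5% of the gaps of that mark on chromosome 15 were at least as wide.

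Ly6c2 (chr15:75108158-75111970, minus strand) differed from Ly6c1 in H3K9me1 and H3K9me2 at its start sites and in each mark over its gene body. The windows around its 4 start sites were covered over 100% by H3K9me1 and H3K9me2 and over 0% by H3K9me3. H3K9me3 covered 35.2% of its gene body, in a region of 14.25 kb that ended 2.47 kb from the 5′ end. Its H3K9me1 region was 27.75 kb wide and its H3K9me2 region 25.5 kb. Ly6c1 and Ly6c2 shared 665 words of 100 bases over the gene bodies with 1 kb either side, which were 9.90% of the words of Ly6c1 and 11.6% of those of Ly6c2. Ly6c1 and Ly6a, both without a mark at a start site, shared 496 such words. These were 7.39% of the words of Ly6c1 and 9.81% of those of Ly6a.

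In the wider windows of 1 kb either side of single start sites, 18.1 to 25.3% of words were repeated at Ly6a, 25.8 to 27.1% at Ly6c1 and 24.1 to 28.4% at Ly6c2. In the 250 bases upstream of the start these shares were farther apart, at 80.8% for Ly6c1 and 28.5% for Ly6c2. The windows of these 3 genes and of Ly6i were also poor in CpG, with an observed over expected ratio of 0.05 to 0.11.

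Ly6i (chr15:74979534-74983430, minus strand) lay between Ly6e and Ly6a and was covered over 100% by H3K9me1 and H3K9me2, both around its 1 start site and over its gene body. H3K9me3 covered 0% of both, and the nearest H3K9me3 region was 24.8 kb away. The H3K9me1 region over Ly6i was 13.5 kb wide and the H3K9me2 region 11.25 kb. Both ended before the Ly6a gene record.

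Ly6e encodes a widely expressed, interferon-induced surface protein that limits the entry of some viruses (chr15:74955051-74959905, plus strand). Of its 15 start sites, 14 had no mark within 1 kb. The start at 74956555 had H3K9me1 over 15.2% of its window. Its gene body was covered by H3K9me1 over 54.7% and by H3K9me2 and H3K9me3 over 0%. Upstream, the nearest H3K9me1 region ended 1.55 kb and the nearest H3K9me2 region 2.30 kb from the 5′ end, while the nearest H3K9me3 region was 41.3 kb away. Ly6e, Ly6i and Ly6a all lay inside 1 stretch free of H3K9me3, 94.5 kb wide at chr15:74913751-75008250. Of 3416 gaps between H3K9me3 regions on chromosome 15, 128 (3.75%) were at least as wide.

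Ly6d, a surface marker of early B-lineage cells and of stratified epithelia, was covered by every mark (chr15:74762056-74763620, minus strand). The window around its 1 start site was covered over 100% by each of the marks. Its gene body was covered over 100% by H3K9me1 and over 87.5% by H3K9me2 and by H3K9me3, whose regions there shared the same 22.5 kb, chr15:74762251-74784750.

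**Figure D2:**
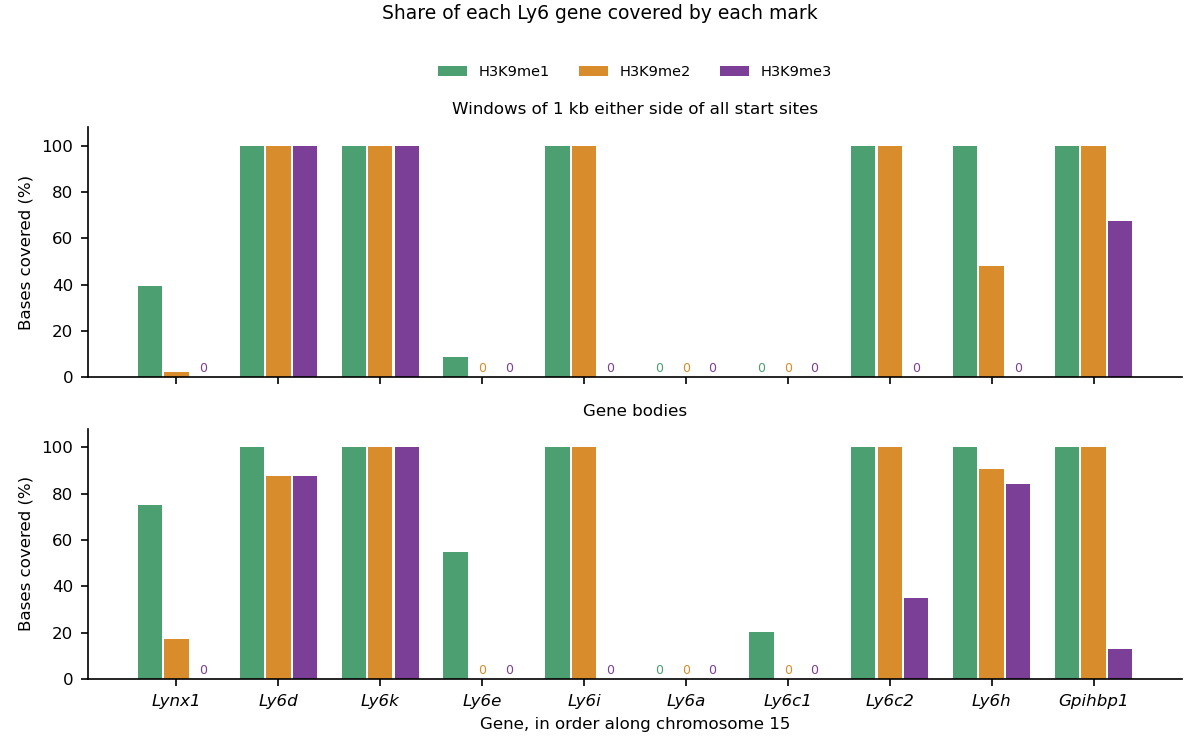
Share of bases (%) covered by each mark in the windows of 1 kb either side of all start sites (top) and in the gene bodies (bottom) of the 10 genes, in order along the chromosome. Bars are single values from 1 list per mark, and a 0 marks an empty bar. Ly6d and Ly6k are near or at 100% for every mark, and Ly6a is at 0 throughout.

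The genes of the nervous system differed from each other. Lynx1 encodes a GPI-anchored modulator of nicotinic acetylcholine receptors (chr15:74747852-74753046, minus strand). Around its 3 start sites H3K9me1 covered 39.2% of bases, H3K9me2 2.26% and H3K9me3 0%. From its 5′ end the H3K9me1 region began 205 bp away, the H3K9me2 region 955 bp and the H3K9me3 region 1705 bp. Lynx1 therefore counted as marked by H3K9me2 only just within the 1 kb limit. Its gene body was covered over 75.1%, 17.3% and 0%.

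Ly6h, which is enriched in brain (chr15:75551268-75567255, minus strand), is the longest of the 10 genes at 16 kb. Its windows were covered over 100% by H3K9me1, 47.8% by H3K9me2 and 0% by H3K9me3, whose nearest region began 1246 bp from the 5′ end, just outside the limit. Over the gene body H3K9me3 covered 84.3% and H3K9me2 90.6%. H3K9me3 thus lay over most of the gene and not around its start sites, while an H3K9me2 region held the 5′ end. The H3K9me2 share was 31.6% around the most downstream start and 62.7% around the 5′ end. The start windows of Ly6h were the richest in GC of the cluster genes, with 60.9 to 65.1% GC and an observed over expected CpG ratio of 0.59 to 0.61.

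Ly6k and Gpihbp1, with roles outside blood and brain, carried all marks at their start sites. Ly6k is expressed in testis and needed for sperm function (chr15:74796874-74799986, minus strand). It was covered over 100% by each mark at both its 2 start sites and its gene body, within an H3K9me3 region of 81.75 kb. That region also met Gml, Gml2, Cyp11b1 and Cyp11b2, as well as the antisense gene Gm17189 that overlaps Ly6k. The last 2 protein-coding genes make corticosterone and aldosterone in the adrenal cortex. Gpihbp1 carries lipoprotein lipase to the inner wall of capillaries (chr15:75596628-75599481, plus strand). H3K9me1 and H3K9me2 covered 100% of its windows and its gene body. H3K9me3 covered 67.3% of the windows but 13.1% of the gene body, because the H3K9me3 region ended inside the gene, at 75597000. Beyond this end the next 84.0 kb held no H3K9me3 region.

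Over the whole span, H3K9me1 covered 82% of bases, H3K9me2 76.8%, H3K9me3 63.2% and any mark 86.9%. Chromosome 15 as a whole was covered over 46.8%, 46.1%, 44.1% and 73.0%. Among 132443 windows of the cluster's length along this chromosome, which overlap and are not independent, the median coverage was 48.7% for H3K9me1, 48.5% for H3K9me2, 41.1% for H3K9me3 and 82.1% for any mark. The 90th percentiles were 84.8%, 76.1%, 80.4% and 92.6%, so H3K9me2 lay just above its 90th percentile and the others below theirs. All 3 marks coincided over 57.8% of the cluster (492.0 kb), against 20.3% of chromosome 15. With 200 kb on each side the shares were 84.2%, 69.7%, 56.3% and 88.2%.

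Coverage was uneven along the cluster, and of the stretches set out here it was lowest from Ly6e to Ly6c1. From Lynx1 to Ly6k, H3K9me1 covered 97.1%, H3K9me2 82.7% and H3K9me3 62.3% of 52.13 kb. From Ly6e to Ly6c1, over 93.78 kb with Ly6i and Ly6a inside, the shares were 47.2%, 31.2% and 11.2%. All marks coincided over 4.0% of these bases. From Ly6c2 to Gpihbp1 the shares were 88.1%, 86.6% and 75.8% of 491.3 kb, and all marks coincided over 70.2%. The extent of each stretch was set by the genes at its ends after their values were known, so the order of these shares is a description.

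Between neighbouring genes, H3K9me1 ranged from 32.1% of the bases between Ly6a and Ly6c1 to 100% between Ly6d and Ly6k. H3K9me2 ranged between the same intervals from 24.5% to 95.5%. H3K9me3 was at 0% between Ly6e and Ly6i and between Ly6i and Ly6a, and reached 79.7% between Ly6d and Ly6k. The longest interval, 439.3 kb between Ly6c2 and Ly6h, was covered over 87.0%, 86.3% and 77.2%. It held the widest regions met in the cluster, 100.5 kb for H3K9me1, 105 kb for H3K9me2 and 93.75 kb for H3K9me3. All of them met the pseudogenes Gm3142 and 9030619P08Rik. The H3K9me1 region also met the protein-coding gene Ly6l, and the H3K9me2 and H3K9me3 regions also met the pseudogene Gm28114.

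**Figure D3:**
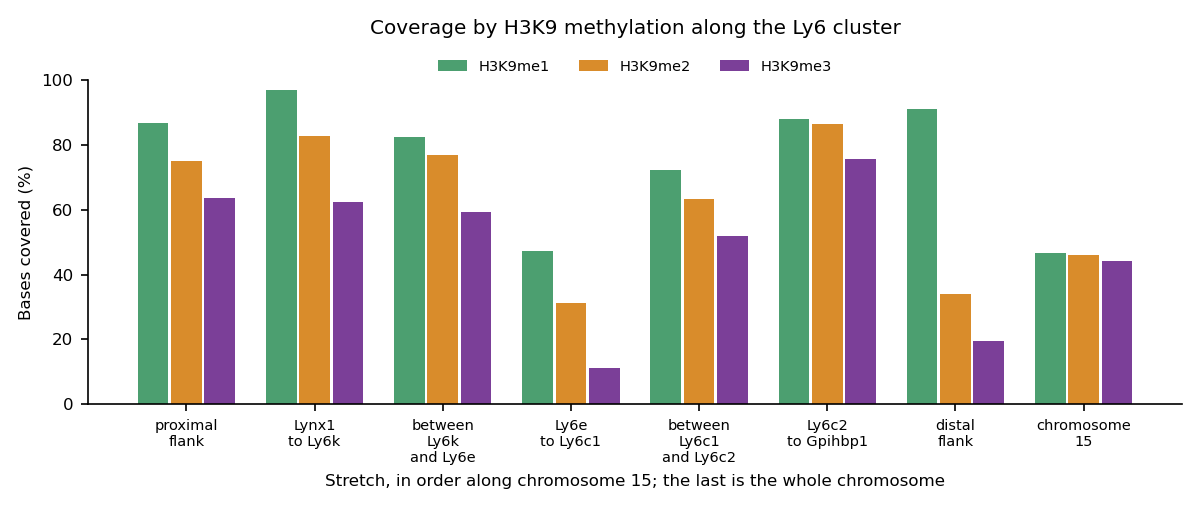
Share of bases (%) covered by each mark in successive stretches of the cluster and its 200 kb flanks, beside the whole of chromosome 15. Bars are single values from 1 list per mark. The stretch from Ly6e to Ly6c1 is the lowest for H3K9me1, H3K9me2 and H3K9me3 among those drawn within the cluster.

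The flanks differed from each other. The proximal 200 kb, on the side of the wide block, were covered over 86.9% by H3K9me1, 75.2% by H3K9me2 and 63.7% by H3K9me3. The distal 200 kb were covered over 91.0%, 34.0% and 19.5%. In the distal flank 51.4% of bases carried H3K9me1 alone, and all marks coincided over 13.5%, against 60.0% in the proximal flank. The distal flank begins at the end of Gpihbp1 by definition, and it was not uniform. By distance from the first base of Lynx1, H3K9me3 was 0% from 875 to 925 kb and 67.4% from 925 to 950 kb.

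In windows of 25 kb the H3K9me3 share was 100% at 100 to 125 kb from the first base of Lynx1 and 0% in each window from 175 to 250 kb. H3K9me1 in the same 3 windows was 40.4%, 73.0% and 63.6%, and H3K9me2 10.4%, 46.6% and 45.0%. Repeated words made up 6.21%, 0.504% and 3.10% of these windows, so most of their words of this length occurred once. The windows from 250 to 300 kb held the interval between Ly6a and Ly6c1 and parts of both genes. Their repeated shares were 19.8% and 22% beside H3K9me1 shares of 39.0% and 24%. Higher repeated shares were found at 50 to 75 kb (23.7%), 450 to 475 kb (25.9%) and 575 to 600 kb (26.4%). H3K9me1 there was 88.0%, 91.0% and 50.4%. A link between repeated sequence and coverage was not tested.

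**Figure D4:**
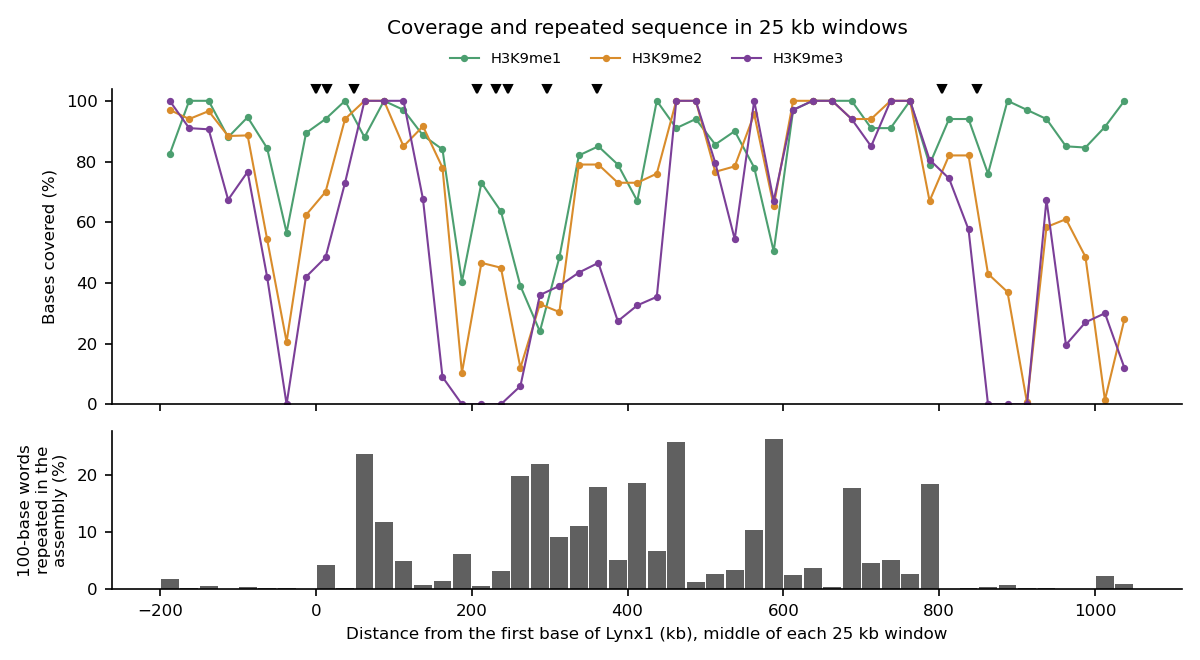
Share of bases (%) covered by each mark (top) and share of words of 100 bases that are repeated in the assembly (bottom, %) in consecutive windows of 25 kb, by distance from the first base of Lynx1 in kb. Triangles mark the 10 genes. H3K9me3 is at 0% from 175 to 250 kb, where at most 6.21% of words are repeated.

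Of 18 symbols listed for neighbouring Ly6/uPAR family members on chromosome 15, 13 were found in the annotation. The symbols Ly6g2, Ly6m, Ly6a2, Ly6c3 and Gm20654 were not, and other names of these genes were not searched. Among the genes found, H3K9me1 was called at the start sites of 13 (100%), H3K9me2 at 12 (92.3%) and H3K9me3 at 9 (69.2%), and all marks at 9. The background was 78.6%, 41.4% and 34.6% of protein-coding genes on chromosome 15. Some of the genes found lie under the same region, such as Gml and Gml2, so the counts are not independent. The exceptions for H3K9me3 among them were Psca, Slurp1, I830127L07Rik and Ly6g, of which Ly6g encodes the Ly6G antigen of neutrophils. Slurp2, the immediate neighbour of Lynx1, was covered over 100%, 100% and 95.1% of its gene body by H3K9me1, H3K9me2 and H3K9me3, where Lynx1 was covered over 75.1%, 17.3% and 0%.

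Among the other protein-coding genes inside the span, 10 of 10 had H3K9me1 and H3K9me2 at a start site and 9 had H3K9me3. Of these 10 genes, 7 are Ly6/uPAR neighbours already counted above, and the others were D730001G18Rik, Cyp11b1 and Cyp11b2. The corresponding counts for the 10 named Ly6 genes were 8, 7 and 3, and the difference was not tested. Of 24 listed neighbours outside the family, 21 were found, Cyp11b1 and Cyp11b2 again among them, and Tsnare1, Gli4 and Zfp696 were not. H3K9me1 was called at the start sites of 18 (85.7%), H3K9me2 at 11 (52.4%) and H3K9me3 at 8 (38.1%). The background for both lists was 78.6%, 41.4% and 34.6% of protein-coding genes on chromosome 15. The 3 listed neighbours without a start mark were Arc, which neurons induce on activity, Them6 and Mafa, a regulator of insulin transcription.

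Of 25 family members listed on other chromosomes, H3K9me1 was called at the start sites of 6 (24%), H3K9me2 at 3 (12.0%) and H3K9me3 at 0, which leaves the level below the calling threshold unknown. Over all annotated genes these shares were 21.4%, 11.5% and 12.0%. The 6 genes with H3K9me1 were the Ly6g5 and Ly6g6 genes of chromosome 17, where 43.5% of all annotated genes had this mark. The 8 genes of chromosome 7, among them Plaur, which encodes the urokinase receptor, and Cd177, had no mark at a start site, on a chromosome where 3.54% of all genes had any. On chromosome 15 the corresponding share was 82.7%.

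**Figure D5:**
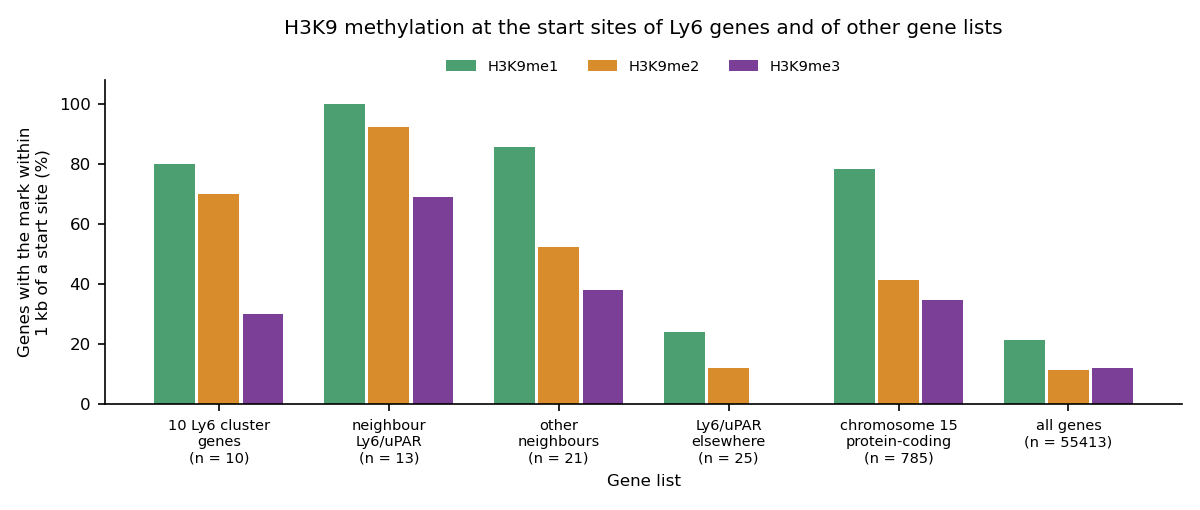
Share of genes (%) with each mark within 1 kb of a start site, for the 10 Ly6 cluster genes, for listed neighbours and family members, for protein-coding genes of chromosome 15 and for all annotated genes, with the number of genes under each group. H3K9me1 stands at 80.0% for the cluster genes and 78.6% for the protein-coding genes of the chromosome.

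The protein-coding genes of chromosome 15 whose pattern was nearest to the median of the 10 genes were Cyp2d22, Klhl38, Upk3a, Tg and Spatc1. Likeness was the Euclidean distance over 6 shares in percent, those of the start windows and of the gene body covered by each mark, and it was 20.3 for Cyp2d22 and 31.6 for Spatc1. The 10 genes themselves lay at distances of 29 (Ly6i) to 183 (Ly6a) from their own median, so they had no single common pattern.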

How the data were processed

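ChIP-seq libraries of H3K9me1, H3K9me2, H3K9me3 and input, with 2 replicates each, were made by the authors from wild-type MEFs. According to the labels and the study's methods, the authors aligned paired reads of 100 bases with bwa (0.7.1) to mm10 (GRCm38) and called regions with histoneHMM. The deposited files hold 1 list per mark with chromosome, start and end, which are positions and not a count, signal or score. How replicates and input entered the call, and its threshold, are not given in the sources used here. Starts were read as 1-based, since 0 positions then lay off the grid of 750 bp.

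Genes and start sites were those of GENCODE M21. Windows of 1 kb either side of all starts of a gene were merged, and a mark was counted from 1 bp of overlap. Words of 100 bases were counted on both strands over 21 chromosomes and checked on simulated data, as were the overlaps and the alignment (Biopython 1.88). The 10 genes and the lists of neighbours and family members were chosen with earlier results of these data known. All listed genes were scored, and those named were the 10, the exceptions of a count, its examples by position, and the 5 most alike genes. Plaur, Cd177, Slurp2 and D730001G18Rik were picked after their values were seen. Alternatives covered region width, joining, windows, start sites, flanks, the extent of the cluster, 0-based starts, protein-coding transcripts and unique words, of which the last 2 were added after seeing the data. No test was run. Python 3.11.15, NumPy 2.4.6, Numba 0.67.0 and Matplotlib 3.10.9 were used.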

Additional observations from a re-analysis of the deposited data

How the results depend on the processing

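No paired analysis was possible because each mark came as 1 list without replicate values, and likewise no replicate was left out. The lists give no depth, so a missing region says only that none was called.

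Of 56 alternative counts of genes, 54 stayed within 1.5 times the count reported. The others were H3K9me3 at start sites, which rose from 3 to 5 genes with windows of 2 kb (Lynx1 and Ly6h were added), and H3K9me3 over gene bodies, which fell from 5 to 3 when 50% of the body had to be covered. Ly6e lost H3K9me1 with windows of 500 bp or with the 5′ end as the only start. Ly6a and Ly6c1 had no mark at a start under the settings of region width, joining, window size, 5′ end and 0-based starts.

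Of 48 alternative shares of the cluster, 30 stayed within the 95% Wilson interval of the share reported, taken over bins of 750 bp, which are not independent. With regions of at least 5 kb the cluster was covered over 78.1% (H3K9me1), 74.0% (H3K9me2), 59.0% (H3K9me3) and 84.1% (any mark), and with its flanks over 80.7%, 65.9%, 52.4% and 85.4%. With regions up to 5 kb apart joined, these were 89.6%, 83.5%, 66.2% and 92.8%, and 92.3%, 76.8%, 59.1% and 94.5%. Both follow from the construction of the setting. With flanks of 500 kb, H3K9me1 covered 79.4% and H3K9me2 66.7%.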

Other observations

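The cluster also holds 19 pseudogenes, of which I830127L07Rik and 9030619P08Rik were already counted among the Ly6/uPAR neighbours. H3K9me1 and H3K9me2 were each called at the start sites of 17 of these pseudogenes and H3K9me3 at 13. On chromosome 15 as a whole, 254 of 386 pseudogenes had H3K9me1, 297 had H3K9me2 and 259 had H3K9me3. Gm28069, between Ly6a and Ly6c1, was the only pseudogene of the cluster without a start mark. All marks were called at the starts of the pseudogenes from Gm28117 to Gm28115, which lay under 1 H3K9me3 region of 75.0 kb.

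Repeated sequence was unequally spread over marked and unmarked bases of the cluster. Words of 100 bases that occur more than once made up 8.59% of the cluster, 6.24% of bases covered by H3K9me1 and 19.3% of bases it did not cover. For H3K9me2 these shares were 7.46% and 12.4%, and for H3K9me3 8.27% and 9.15%. H3K9me1 covered 84.1% of words that occur once and 59.6% of repeated words. The part of repeated sequence in the called regions was not tested.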
